A study of Homo sapiens with 16 samples.

Results

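The hypoxia response and glycolysis genes described here are 37 protein-coding genes in lung adenocarcinoma cells. They comprise 16 genes known to be induced through hypoxia-inducible factor (HIF), 5 genes of glucose uptake and glycolytic flux control, and 16 genes for the enzymes of glycolysis itself. A listed gene was kept where it reached 1 FPKM, the fragments counted on a gene scaled by gene length and library depth, in at least 2 of the library columns, and all 37 of the 37 listed genes did. The gene tables hold 58735 genes, 19951 of them protein-coding, and 16284 genes pass the same level. This level filter used no difference between groups. The listed genes, and the other gene lists below, were however chosen with earlier results of these data known. Counts of called genes in these lists are therefore descriptive.

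HIF is a transcription factor made of an oxygen-labile alpha subunit and a stable beta subunit. When oxygen is plentiful, prolyl hydroxylases (the EGLN enzymes) mark the alpha subunit for degradation through the VHL ubiquitin ligase. When oxygen is short, or when other signals raise HIF, the dimer binds the hypoxia response element, whose core is ACGTG or GCGTG, and induces genes of vessel growth, acid handling, mitophagy, glucose uptake and glycolysis. Many glycolytic enzymes are HIF targets and are also among the most abundant transcripts of cultured cancer cells. Lung adenocarcinoma cells ferment much of their glucose to lactate even in the presence of oxygen.

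NCI-H1975 and HCC827 are established human lung adenocarcinoma lines driven by mutant EGFR, labelled here as lung cancer cells of epithelium with a WT genotype. NCI-H1975 cells were controls, were given magnolin (a lignan of magnolia flower buds), or were given the chloroform parts of Flos Magnoliae (the flower bud as a herbal drug), called the chloroform fraction here. Each of these groups has 4 libraries. The labels used here state no dose, exposure time, vehicle or oxygen level. HCC827 has 2 libraries of parental cells, and its resistant derivative is not analysed here. The stated purpose of the series is to learn how gene expression shifts with acquired resistance to drugs against the EGFR kinase, and what might inhibit the genes involved.

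The NCI-H1975 libraries came in separate tables, here called set A (replicates 1 and 2 of each group) and set B (replicates 3 and 4), and HCC827 in another. Because the tables were normalized separately, levels were compared within a set. The labels do not say whether replicates are separate cultures, so each p-value rests on the spread between these libraries, which may be technical. Reads rebuilt from FPKM and gene length numbered 18392377 to 21312671 in set A, 15962587 to 17039090 in set B and 15863416 to 16383921 in HCC827. The replicate 1 libraries of all 3 groups stood apart from the others. EPCAM, an epithelial adhesion gene, was at 172 to 193 FPKM in those 3 libraries and at 7.65 to 14.4 in the other 9. CDH1, which encodes E-cadherin, was at 54.2 to 74.2 against 4.88 to 9.39. The epithelial markers KRT7, KRT19 and NKX2-1 were also higher in the replicate 1 libraries, whereas KRT8, KRT18, MUC1, NAPSA and SFTPB overlapped. KRT8, for example, was at 119 to 134 FPKM against 99.6 to 187. The fits and pair counts that span both sets are therefore also given without replicate 1. Of 10 epithelial and lung adenocarcinoma markers, 8 reached 1 FPKM in every NCI-H1975 library and all 10 did in HCC827. Levels of NAPSA and SFTPB stayed under 1 FPKM in NCI-H1975. None of 5 leukocyte markers reached 1 FPKM in any library, and CD3E was at 0 in all 12 NCI-H1975 libraries.

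Promoter sequence was read because 24 of the members rose with the chloroform fraction in set B, as described further on. RefSeq (build GRCh38.p14) gave windows around a gene start, most of each window lying upstream, for 32 of the 37 members, 57 windows in all. Only the part of each window upstream of the start was searched, on both strands, and all motif counts here refer to that part. The motif ACGTG occurred in 24 of the 57 windows (42.1%) and in 18.5% of all 35116 windows. The other core, GCGTG, occurred in 31.6% of member windows and 32.2% of all windows. The E-box CACGTG, each copy of which contains ACGTG on both strands, occurred in 15.8% of member windows and 6.34% of all windows. By group, ACGTG was in 8 of 15 windows of HIF response genes, 2 of 6 of uptake and flux genes, and 14 of 36 of glycolytic enzymes. A match is a description of the letters, not evidence of binding. The stretches shown stand for members of all 3 groups whose values are given later. Each is 60 bases upstream of a start, free of annotated exons, written 5′ to 3′ on the gene's strand, with ACGTG or its reverse complement CACGT in capitals.
ANGPTL4 (chr19:8363905-8363964, plus strand): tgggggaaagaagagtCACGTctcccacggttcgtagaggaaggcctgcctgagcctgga
BNIP3 (chr10:131982025-131982084, minus strand): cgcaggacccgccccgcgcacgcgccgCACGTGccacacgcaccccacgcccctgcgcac
MXI1 (chr10:110210090-110210149, plus strand): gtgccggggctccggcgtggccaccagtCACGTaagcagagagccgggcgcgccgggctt
PFKFB3 (chr10:6202797-6202856, plus strand): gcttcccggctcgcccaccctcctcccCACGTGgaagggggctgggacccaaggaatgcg
HK2 (chr2:74834971-74835030, plus strand): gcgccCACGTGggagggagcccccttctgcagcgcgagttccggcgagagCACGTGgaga
PFKP (chr10:3069022-3069081, plus strand): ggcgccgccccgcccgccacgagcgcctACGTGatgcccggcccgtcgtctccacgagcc
PGK1 (chrX:78104028-78104087, plus strand): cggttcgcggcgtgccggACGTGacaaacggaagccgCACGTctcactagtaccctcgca
GAPDH (chr12:6535156-6535215, plus strand): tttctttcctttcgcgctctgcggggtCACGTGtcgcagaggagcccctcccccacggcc

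The BNIP3, PFKFB3 and GAPDH stretches each hold 1 palindromic CACGTG, and the HK2 stretch, before the more downstream of its starts, holds 2. The ANGPTL4, MXI1 and PFKP stretches each hold a single ACGTG that is not palindromic, on the minus strand in ANGPTL4 and MXI1 and on the plus strand in PFKP. PGK1 holds 2 such copies, 1 on each strand. Of the members with a window, ACGTG was present for 15 of the 19 that rose with the chloroform fraction in set B and for 6 of the other 13. Over all genes with a window it was present for 5935 of 27305. Members had more windows per gene (57 for 32 genes) than all genes (35116 for 27305), which favours a match in members. No test was run on these counts. The RefSeq table has no window for VEGFA, NDRG1, BNIP3L, HILPDA and SLC2A3.

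Compared with controls, the chloroform fraction libraries of set B had higher transcript levels of most HIF response genes and of all 5 uptake and flux genes, while the most abundant glycolytic enzymes changed little or fell. Of the 37 members 24 rose and 2 fell (limma, adjusted p under 0.05), where 8.33% of all 14673 genes tested rose and 11.6% fell. By group, 13 of 16 HIF response genes rose and none fell, with a median log2 change of 0.70. All 5 uptake and flux genes rose (median 0.72). Of the 16 core glycolytic enzymes 6 rose and 2 fell (median 0.18), and 8 did not pass the test. The median over all genes was -0.01. Fold changes here are on the log2(FPKM + 1) scale, which understates the change of genes with low levels. Without control replicate 3 the number of members called fell from 26 to 14, and without control replicate 4 to 13. Over all genes the number called fell from 2918 to 947 and 728 in the same fits.

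The summed FPKM of the 16 HIF response genes was 187 and 195 in the set B controls, 288 and 307 with magnolin, and 480 and 529 with the chloroform fraction. The sum of the 16 glycolytic enzymes was 2534 and 2607 in those controls, 2850 and 2876 with magnolin, and 2578 and 2579 with the fraction. In set B the HIF response sum separated all 3 groups in order, and the enzyme sum with the fraction lay inside the range of the controls. In set A the HIF response sum was 201 and 190 in controls, 289 and 297 with magnolin, and 241 and 286 with the fraction, so both treatments were above the controls. ANGPTL4 alone made up a large part of the rise in these sums. It was at 29.5 and 31.4 FPKM in set A controls, 66.0 and 82.9 with magnolin and 64.0 and 83.7 with the fraction. In set B, in the same order, it was at 36.4 and 42.6, 70.3 and 87.3, and 166 and 219 FPKM. The enzyme sum in set A was 3051 and 3240 in controls, 3609 and 2905 with magnolin, and 3341 and 3284 with the fraction. There both fraction libraries were above both controls, unlike in set B, and magnolin overlapped the controls. In these bulk libraries, fewer cells of a type and less RNA per cell cannot be told apart.

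**Figure D1:**
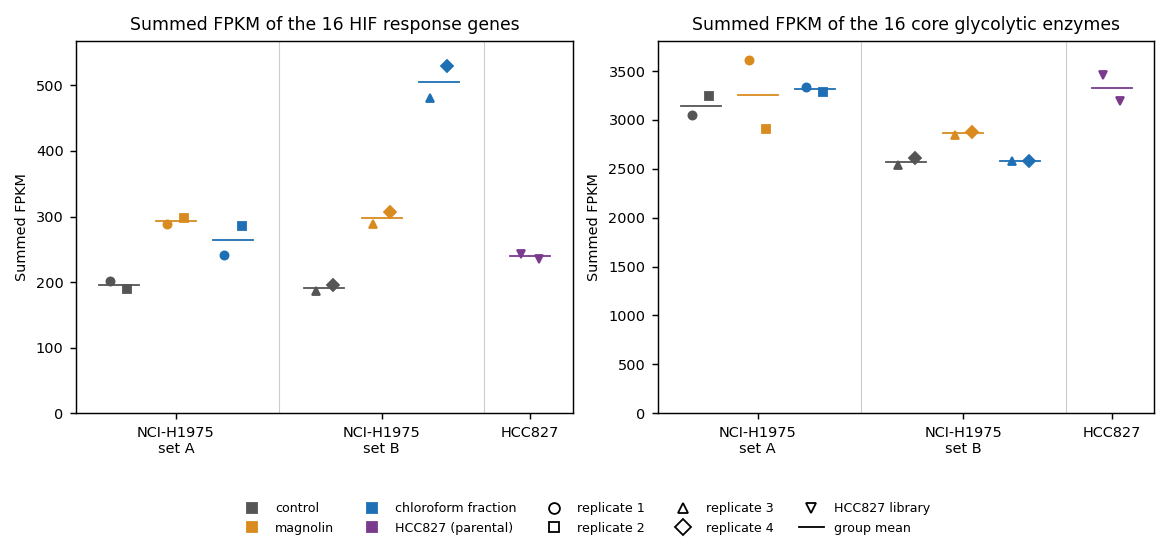
Summed FPKM (y axis) of the 16 HIF response genes (left) and the 16 core glycolytic enzymes (right) in each library, grouped by set on the x axis. Points are libraries, colours are groups, shapes are replicate numbers and lines are group means. In set B the HIF response sum rises from 187 and 195 in controls to 480 and 529 with the chloroform fraction, and the enzyme sum with the fraction (2578 and 2579) lies within the control range of 2534 to 2607.

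Other measures differed between the same set B groups. The share of rebuilt reads from mitochondrial genes was 5.83% to 5.84% in controls, 6.38% to 6.398% with magnolin and 7.04% to 8.17% with the fraction. The summed FPKM of 10 epithelial markers was 635 to 645 in controls, 452 to 458 with magnolin and 427 to 466 with the fraction. Most of that sum was KRT8, KRT18 and KRT19, each lower in both fraction libraries than in both controls. CDH1, MUC1, NKX2-1 and SFTPB were also lower with the fraction, whereas KRT7, EPCAM and NAPSA overlapped the controls. KRT7 was at 58.8 and 61.2 FPKM in controls and 58.3 and 71.0 with the fraction. The sum of 5 fibroblast markers was 19.7 to 25.2, 15.1 to 15.5 and 9.85 to 10.5, with 2 of the 5 at 1 FPKM or more in each of these libraries. Most of that sum was COL1A2, at 21.1 and 15.9 FPKM in controls, 12.7 and 12.1 with magnolin and 7.94 and 8.29 with the fraction. LUM was at most 0.153 and DCN at most 0.00463 FPKM in these libraries. The sum of 5 endothelial markers was 4.44 to 6.56, 1.64 to 1.97 and 1.05 to 1.11, and VWF was at most 0.0591 FPKM in them. Most of the endothelial sum in the controls was CDH5, at 4.39 and 3.07 FPKM, against 0.775 and 0.616 with magnolin and 0.172 and 0.0498 with the fraction. PECAM1 was at 1.82 and 1.20, 0.911 and 0.856, and 0.712 and 0.764 FPKM in the same order. The part of these measures in the results on hypoxia response and glycolysis genes was not tested.

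**Figure D2:**
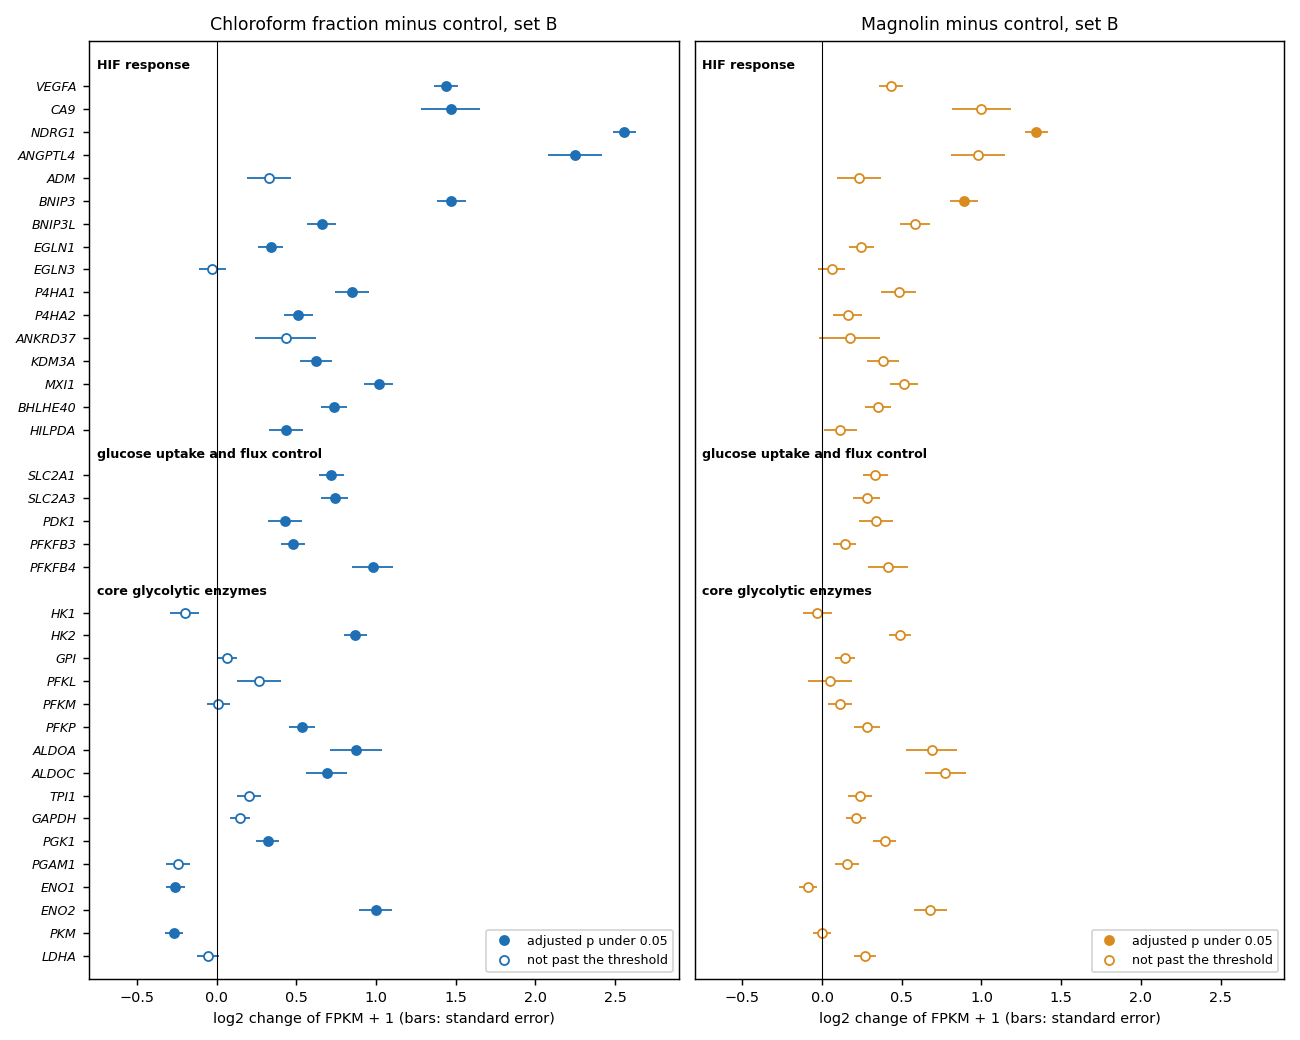
Log2 change of FPKM + 1 (x axis) of each of the 37 members (y axis, by role) in set B for the chloroform fraction (left) and magnolin (right) against control, with bars for the standard error. Filled points have an adjusted p under 0.05. With the fraction 24 members rose and 2 fell, and with magnolin 2 rose.

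Among HIF response genes for secreted and surface proteins, VEGFA encodes the main growth factor for vessels (ENSG00000112715, chr6:43770184-43786487). Its level in set B was 14.2 and 13.1 FPKM in the controls, 18.6 and 18.8 with magnolin and 37.7 and 39.5 with the fraction, so the 3 groups did not overlap (log2 change 1.44, SE 0.07, adjusted p = 0.00042 for fraction against control). In set A the same groups, in that order, were at 7.05 and 8.60, 10.04 and 11.5, and 10.5 and 13.4 FPKM, with both treatments above the controls. ANGPTL4 encodes a secreted inhibitor of lipoprotein lipase (ENSG00000167772, chr19:8363289-8374373). It was at 36.4 and 42.6 FPKM in the controls, 70.3 and 87.3 with magnolin and 166 and 219 with the fraction in set B (log2 change 2.25, SE 0.17, adjusted p = 0.00112 for the fraction). Its set A values were 29.5 and 31.4, 66.0 and 82.9, and 64.0 and 83.7 FPKM, which puts every treated library of both sets above every control library of its set. CA9 encodes the membrane carbonic anhydrase that exports acid (ENSG00000107159, chr9:35673856-35681159), and it was low throughout. Set B gave 2.14 and 1.43 FPKM in the controls, 5.29 and 3.83 with magnolin and 6.07 and 7.25 with the fraction (log2 change 1.47, SE 0.19, adjusted p = 0.00501 for the fraction). Set A gave 0.366 and 2.57, 0.541 and 1.18, and 0.940 and 3.97 FPKM, with all groups overlapping. Exons of the opposite-strand gene ARHGEF39 cover 38.5% of CA9 exon bases, and the strand setting of the counting is not given in the sources used here, so the CA9 level is uncertain. ARHGEF39 itself was at 2.21 and 2.27 FPKM in set B controls and 0.851 and 0.885 with the fraction.

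NDRG1, a stress-induced gene named for its regulation by MYCN (ENSG00000104419, chromosome 8), had the largest log2 change of the 37 members with the fraction in set B. It was at 8.19 and 8.68 FPKM in the controls, 23.3 and 22.5 with magnolin and 53.3 and 55.8 with the fraction (log2 change 2.56, SE 0.07, adjusted p = 0.00029). The set A values, again for control, magnolin and fraction, were 8.87 and 8.10, 14.9 and 21.4, and 10.5 and 19.7 FPKM, with fraction replicate 1 only a little above the controls. MXI1 encodes a repressor that competes with MYC for its partner MAX (ENSG00000119950, chr10:110207605-110287365). Its set B level was 5.52 and 6.07 FPKM in the controls, 8.20 and 9.22 with magnolin and 12.9 and 12.6 with the fraction (log2 change 1.02, SE 0.09, adjusted p = 0.00187 for the fraction). In set A it was at 4.69 and 7.70, 4.09 and 9.18, and 3.41 and 8.30 FPKM, and the replicate 1 library of each group was below replicate 2. BHLHE40, a transcriptional repressor of the circadian system, was at 21.8 and 19.7 FPKM in the controls, 25.8 and 27.7 with magnolin and 35.6 and 34.97 with the fraction in set B (log2 change 0.74, SE 0.08, adjusted p = 0.00337 for the fraction). Set A showed 28.1 and 14.3, 42.0 and 31.0, and 32.8 and 18.9 FPKM, where magnolin was above the controls and the fraction overlapped them. KDM3A, a histone demethylase, was at 4.89 and 4.93 FPKM in the controls, 6.39 and 7.06 with magnolin and 8.74 and 7.52 with the fraction in set B (log2 change 0.62, SE 0.10, adjusted p = 0.0101 for the fraction), and at 4.52 and 4.44, 4.87 and 6.67, and 3.802 and 6.11 FPKM in set A. The KDM3A call was lost when either control library of set B was left out.

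BNIP3 and BNIP3L encode mitochondrial receptors for mitophagy. BNIP3 (ENSG00000176171, chr10:131966455-131982013) was at 9.12 and 10.3 FPKM in the controls, 18.3 and 19.3 with magnolin and 30.0 and 27.3 with the fraction in set B (log2 change 1.47, SE 0.09, adjusted p = 0.000691 for the fraction), with no overlap between the groups. Its set A values were 22.8 and 14.3, 27.9 and 13.7, and 22.6 and 18.5 FPKM, where the groups overlapped and the replicates differed more than the treatments. The annotation lists 39 BNIP3 pseudogenes, which held 32.9% to 77.0% of the FPKM summed over BNIP3 and its copies, so the split of reads between them makes the level of BNIP3 uncertain. BNIP3L was at 18.0 and 17.9 FPKM in the controls, 28.2 and 26.5 with magnolin and 31.2 and 26.8 with the fraction in set B (log2 change 0.66, SE 0.09, adjusted p = 0.0067 for the fraction), and the call was lost when either control library was left out. In set A it was at 15.3 and 24.7, 22.1 and 31.5, and 13.7 and 29.4 FPKM, with overlapping groups. P4HA1 and P4HA2 encode the catalytic subunits of collagen prolyl hydroxylase. P4HA1 was at 17.6 and 19.8 FPKM in the controls, 25.7 and 27.2 with magnolin and 37.7 and 31.5 with the fraction in set B (log2 change 0.85, SE 0.11, adjusted p = 0.00508 for the fraction) and at 31.9 and 18.4, 39.6 and 24.9, and 32.0 and 22.9 FPKM in set A, where replicate 1 was the higher in each group. P4HA2 was at 6.66 and 6.37 FPKM in the controls, 6.87 and 7.95 with magnolin and 9.83 and 9.59 with the fraction in set B (log2 change 0.51, SE 0.09, adjusted p = 0.0144 for the fraction), a call lost when either control library was left out. Set A gave 5.54 and 5.39, 7.97 and 9.07, and 7.05 and 5.42 FPKM, with magnolin above both other groups.

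The other 5 HIF response genes moved less. The prolyl hydroxylase gene EGLN1, itself a HIF target that feeds back on HIF, had a log2 change of 0.34 with the fraction in set B, and its relative EGLN3 one of -0.03. EGLN1 passed the test (adjusted p = 0.0322) and EGLN3 did not (adjusted p = 0.851). HILPDA, a lipid droplet gene, was called at 0.44 (adjusted p = 0.0375), and the call was lost whichever of the 6 set B libraries was left out. For EGLN1 it was lost without 5 of the 6, all but fraction replicate 3. ADM, which encodes the vasodilator peptide adrenomedullin, gave 0.33 (adjusted p = 0.153), and ANKRD37 gave 0.43 (adjusted p = 0.172). ANKRD37 lay between 0.803 and 1.75 FPKM in all NCI-H1975 libraries, and the opposite-strand gene UFSP2 covers 35.2% of its exon bases, so its level is uncertain.

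**Figure D3:**
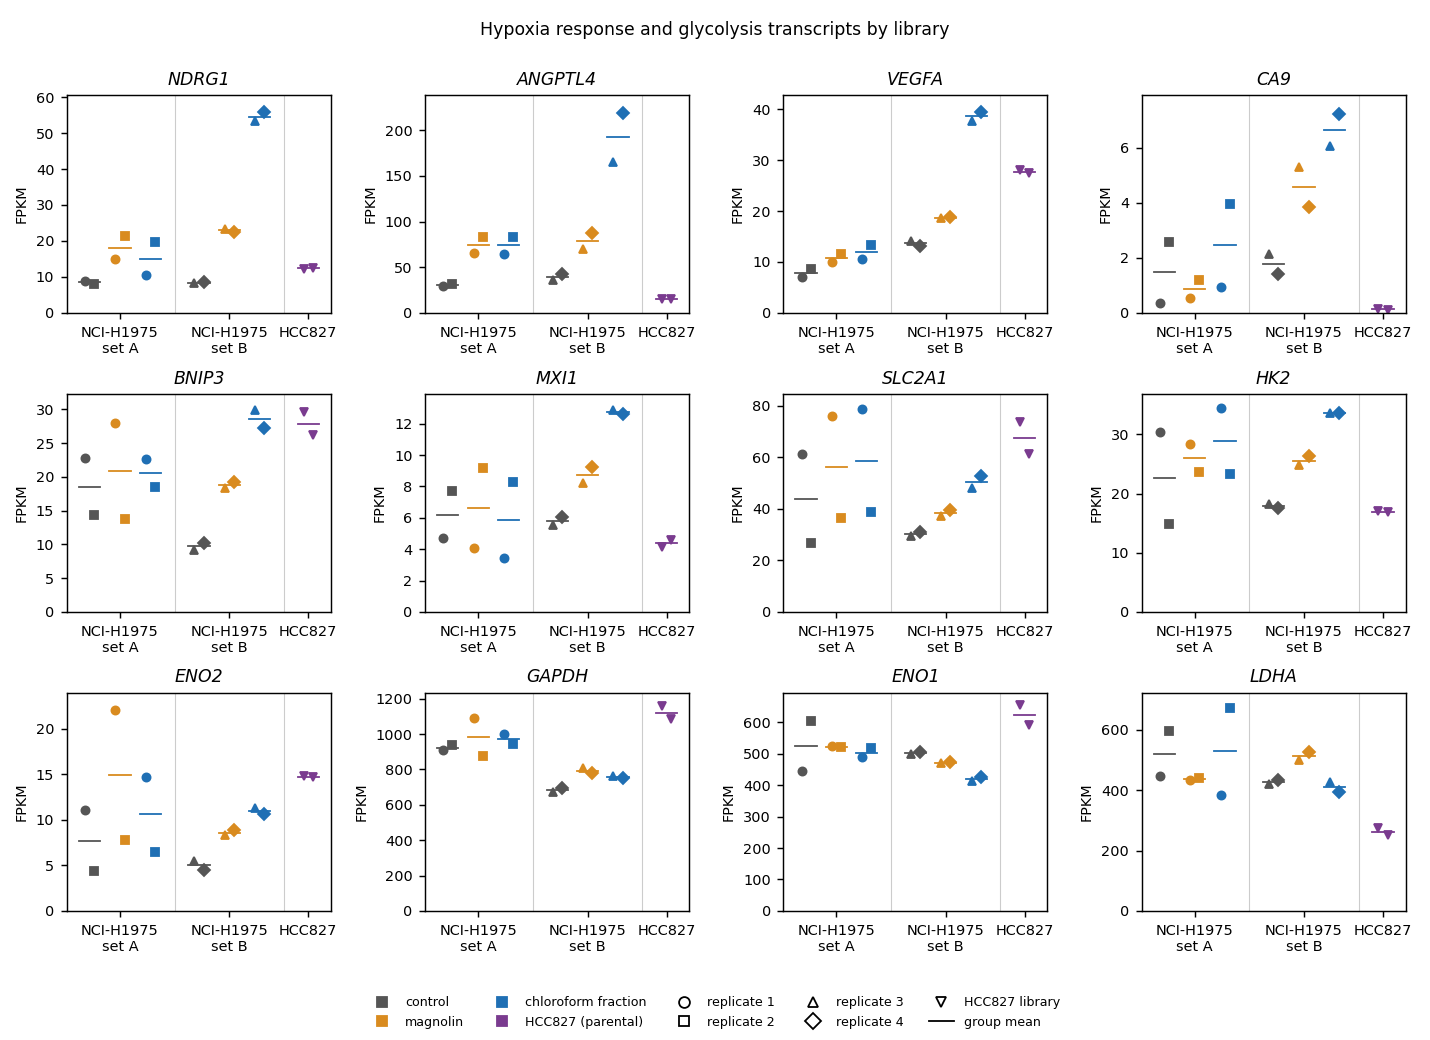
FPKM (y axis, from 0, its own scale in each panel) of 12 members in each library, by set on the x axis. Points are libraries, colours are groups, shapes are replicate numbers and lines are group means. In set B NDRG1, ANGPTL4, VEGFA and HK2 are ordered control, magnolin, fraction without overlap, whereas LDHA is highest with magnolin (501 and 528) and ENO1 is lowest with the fraction (413 and 427).

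The uptake and flux genes encode the steps that set how much glucose enters glycolysis and where its product goes. SLC2A1 encodes the glucose transporter GLUT1 (ENSG00000117394, chr1:42925375-42959176) and was at 29.5 and 30.9 FPKM in the controls, 37.2 and 39.4 with magnolin and 48.0 and 52.6 with the fraction in set B (log2 change 0.72, SE 0.08, adjusted p = 0.00324 for the fraction). Set A values were 61.1 and 26.7, 75.9 and 36.5, and 78.6 and 38.6 FPKM, where each replicate 1 library was above each replicate 2 library and each treated library above the control of the same number. SLC2A3, for the high-affinity transporter GLUT3, was at 11.1 and 10.1 FPKM in the controls, 13.6 and 12.5 with magnolin and 18.7 and 18.0 with the fraction in set B (log2 change 0.74, SE 0.08, adjusted p = 0.00377 for the fraction). In set A it was at 8.15 and 8.77, 11.6 and 13.0, and 7.72 and 9.43 FPKM, with magnolin above the controls and the fraction overlapping them. PFKFB3 and PFKFB4 encode enzymes that make fructose 2,6-bisphosphate, the activator of phosphofructokinase. PFKFB4 was at 4.03 and 3.16 FPKM in the controls, 5.37 and 4.84 with magnolin and 7.47 and 8.57 with the fraction in set B (log2 change 0.98, SE 0.13, adjusted p = 0.00526 for the fraction) and at 5.06 and 2.84, 9.08 and 3.34, and 8.49 and 4.37 FPKM in set A. PFKFB3 was at 10.9 and 10.3 FPKM in the controls, 11.5 and 12.04 with magnolin and 15.1 and 15.2 with the fraction in set B (log2 change 0.48, SE 0.07, adjusted p = 0.00899 for the fraction) and at 13.2 and 8.41, 16.8 and 12.3, and 15.5 and 9.49 FPKM in set A, and its call was lost when either control library of set B was left out. PDK1, the kinase that shuts off pyruvate dehydrogenase, gave log2 change 0.43, SE 0.11, adjusted p = 0.0402 with the fraction in set B. That call was lost without any one of 5 of the 6 libraries, all but fraction replicate 4. PDK1 lay between 2.06 and 3.44 FPKM in all NCI-H1975 libraries.

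Among the 16 core enzymes, the 6 that rose with the fraction in set B were HK2, PFKP, ALDOA, ALDOC, PGK1 and ENO2, and the 2 that fell were ENO1 and PKM. HK2 encodes the inducible hexokinase that traps glucose in the cell (ENSG00000159399, chr2:74833981-74893359). Its set B level was 18.3 and 17.6 FPKM in the controls, 24.8 and 26.3 with magnolin and 33.6 and 33.7 with the fraction (log2 change 0.87, SE 0.07, adjusted p = 0.00141 for the fraction). In set A it was at 30.5 and 14.8, 28.4 and 23.7, and 34.4 and 23.3 FPKM, and control replicate 1 exceeded both magnolin libraries. ENO2 encodes the gamma form of enolase (ENSG00000111674, chr12:6913745-6923698), at 5.49 and 4.53 FPKM in the controls, 8.28 and 8.89 with magnolin and 11.3 and 10.6 with the fraction in set B (log2 change 0.999, SE 0.10, adjusted p = 0.00287 for the fraction). Set A gave 11.1 and 4.33, 22.1 and 7.78, and 14.7 and 6.48 FPKM, with replicate 1 above replicate 2 in each group. PFKP, the platelet-type phosphofructokinase gene, was at 40.0 and 40.6 FPKM in the controls, 48.8 and 49.4 with magnolin and 55.1 and 63.0 with the fraction in set B (log2 change 0.54, SE 0.08, adjusted p = 0.00894 for the fraction), a call lost when either control library was left out. In set A it was at 62.8 and 37.8, 68.6 and 43.7, and 80.1 and 45.7 FPKM. ALDOC, the brain-type aldolase gene, was at 10.6 and 8.52 FPKM in the controls, 16.8 and 17.1 with magnolin and 14.6 and 17.5 with the fraction in set B (log2 change 0.69, SE 0.13, adjusted p = 0.0162 for the fraction), and the call was lost without control replicate 4. Its set A values were 17.7 and 11.4, 35.2 and 17.2, and 26.7 and 11.3 FPKM. ALDOA, for the main aldolase of muscle and many tumours, was at 3.04 and 2.64 FPKM in the controls, 5.10 and 5.26 with magnolin and 7.26 and 4.99 with the fraction in set B (log2 change 0.87, SE 0.16, adjusted p = 0.0162 for the fraction) and at 3.10 and 2.91, 5.64 and 6.203, and 3.82 and 3.88 FPKM in set A. Exons of the same-strand gene AC093512.2 cover 42.3% of ALDOA exon bases, and how reads in shared exons were counted is not given, so the ALDOA level is uncertain. The ALDOA call was lost when either control library of set B was left out.

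Genes for the enzymes of the later steps were among the most abundant members per length in NCI-H1975, with GAPDH at the top in every library. GAPDH, the dehydrogenase often used as a reference gene (ENSG00000111640, chr12:6533927-6538374), was at 671 and 696 FPKM in the controls, 807 and 778 with magnolin and 763 and 751 with the fraction in set B (log2 change 0.15, SE 0.06, adjusted p = 0.145 for the fraction). Set A gave 909 and 939, 1093 and 875, and 1001 and 944 FPKM, and its 62 annotated pseudogenes held 0.636% to 1.25% of the FPKM summed over GAPDH and its copies. PGK1, the first enzyme of the pathway to yield ATP (ENSG00000102144, chrX:77910739-78129296), was at 152 and 165 FPKM in the controls, 206 and 211 with magnolin and 203 and 193 with the fraction in set B (log2 change 0.32, SE 0.07, adjusted p = 0.028 for the fraction) and at 179.7 and 201, 215 and 177, and 186 and 214 FPKM in set A. ENO1, the main enolase (ENSG00000074800, chr1:8861000-8879250), was at 498 and 507 FPKM in the controls, 470.2 and 475 with magnolin and 413 and 427 with the fraction (log2 change -0.26, SE 0.06, adjusted p = 0.0306 for the fraction) in set B. In set A it was at 446 and 604, 526 and 521, and 489 and 519.6 FPKM, with the fraction inside the range of the controls. PKM, for pyruvate kinase of muscle and tumours, was at 347 and 341 FPKM in the controls, 341 and 346 with magnolin and 283 and 289 with the fraction in set B (log2 change -0.27, SE 0.06, adjusted p = 0.0273 for the fraction) and at 379 and 354, 492 and 369.9, and 449.8 and 369 FPKM in set A, where both fraction libraries were above the control of the same number. The PGK1, ENO1 and PKM calls were each lost without any one of the control or magnolin libraries of set B. LDHA, which makes lactate from pyruvate (ENSG00000134333, chr11:18394388-18408425), was at 421 and 434 FPKM in the controls, 501 and 528 with magnolin and 427 and 395 with the fraction in set B, and fraction and control overlapped (log2 change -0.06, SE 0.07, adjusted p = 0.61). In set A LDHA was at 447 and 595, 435 and 439, and 386 and 673 FPKM. The other 6 enzymes (HK1, GPI, PFKL, PFKM, TPI1 and PGAM1) had log2 changes from -0.24 (PGAM1) to 0.27 (PFKL) with the fraction in set B, none past the threshold.

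Within a paralog family, the share taken by 1 member is a ratio inside 1 library and does not depend on how the tables were scaled. HK2 made up 35.9% to 38.1% of the FPKM of HK1 and HK2 in set B controls, 45.9% to 46.3% with magnolin and 54.2% to 57.7% with the fraction. PFKP made up 59.8% to 61.2%, 63.4% to 64.3% and 66.0% to 67.1% of the 3 phosphofructokinase genes. ENO2 made up 0.887% to 1.09%, 1.73% to 1.84% and 2.43% to 2.67% of both enolases. For these 3 families the set B groups were ordered control, magnolin, fraction with no overlap. The SLC2A3 share of both glucose transporters, at 24.6% to 27.3%, 24.0% to 26.9% and 25.5% to 28.0%, overlapped between all groups. In set A all 4 shares overlapped between the groups, with replicates of a group far apart. Against the control of the same number, the ENO2 share was higher in both pairs with either treatment (controls 2.43% and 0.712%, magnolin 4.03% and 1.47%, fraction 2.93% and 1.23%). The PFKP share was lower in both pairs with magnolin (70.4% and 59.7% against 73.6% and 62.9%). The SLC2A3 share was higher in both pairs with magnolin and lower in both with the fraction, and the HK2 share was lower in pair 1 and higher in pair 2 with either treatment. No test was run on these shares.

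**Figure D4:**
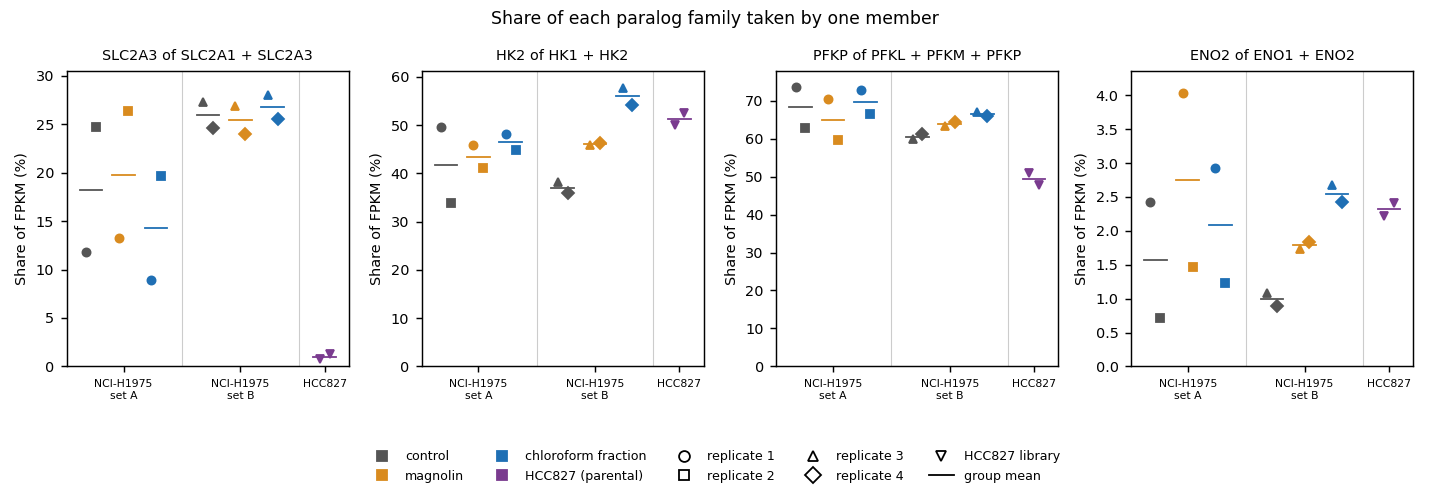
Share of family FPKM in percent (y axis, from 0) taken by SLC2A3, HK2, PFKP and ENO2 in each library, by set on the x axis. Points are libraries, colours are groups, shapes are replicate numbers and lines are group means. The set B shares of HK2 run from 35.9% to 38.1% in controls to 54.2% to 57.7% with the fraction, and SLC2A3 is at 0.783% and 1.25% of its family in HCC827.

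With magnolin in set B, NDRG1 and BNIP3 rose and no member fell, where 0.252% of all 14673 genes rose and 0.375% fell. NDRG1 changed by 1.34 on the log2 scale (SE 0.07, adjusted p = 0.0182) and BNIP3 by 0.89 (adjusted p = 0.0239). Both calls were lost when any one of the control or magnolin libraries of set B was left out. At an unadjusted p under 0.05, 24 of the 37 members differed from control, as did 2083 of all 14673 genes. Members that did not pass after adjustment included CA9 (log2 change 0.999, SE 0.19, adjusted p = 0.0913), ANGPTL4 (log2 change 0.98, SE 0.17, adjusted p = 0.0849), ALDOC (log2 change 0.77, SE 0.13, adjusted p = 0.0744) and ENO2 (log2 change 0.68, SE 0.10, adjusted p = 0.0631). The median log2 change was 0.41 over HIF response genes, 0.33 over uptake and flux genes and 0.23 over core enzymes, beside 0.01 over all genes. Log2 changes were above 0 for 34 of the 37 members, and for 53.2% of all genes. LDHA and PGK1, at 0.27 and 0.39, were higher in both magnolin libraries than in both controls but did not pass the test (adjusted p = 0.179 and 0.0893).

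A direct comparison of the chloroform fraction with magnolin in set B called 11 members higher and 3 lower with the fraction, where 5.55% of all genes were higher and 9.36% lower. The 6 HIF response genes higher with the fraction were VEGFA (log2 change 1.01, SE 0.07, adjusted p = 0.00204), NDRG1 (log2 change 1.21, SE 0.07, adjusted p = 0.00121), ANGPTL4 (log2 change 1.27, SE 0.17, adjusted p = 0.0105), BNIP3, MXI1 and BHLHE40. The uptake and flux genes SLC2A1, SLC2A3, PFKFB3 and PFKFB4 and the enzyme gene HK2 were also higher, with log2 changes from 0.34 to 0.56. The 3 members lower with the fraction than with magnolin were all enzymes of the later steps. They were PGAM1 (log2 change -0.40, SE 0.07, adjusted p = 0.0228), LDHA (log2 change -0.32, SE 0.07, adjusted p = 0.0338) and PKM (log2 change -0.26, SE 0.06, adjusted p = 0.0355). Median log2 changes were 0.36 over HIF response genes, 0.38 over uptake and flux genes and -0.08 over core enzymes, beside -0.02 over all genes. Leaving out control replicate 3 or 4 left 4 members called, leaving out magnolin replicate 3 left 2 and magnolin replicate 4 left 3, and VEGFA and NDRG1 were the 2 called whichever library was left out.

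In set A none of the 37 members passed the test for either treatment, nor did any of the 13103 genes tested (0% called with either treatment). At an unadjusted p under 0.05, limma found 1 member and 107 genes for the fraction, and 3 members and 255 genes for magnolin. In that set libraries with the same replicate number deviated together (correlation 0.704 to 0.743), and a fit with a term for each replicate number (a block) removes that shared part. With the block, 1 member was called with the fraction, where 0.183% of all genes were called, and 3 with magnolin, where 0.992% were. ANGPTL4 was called for both (log2 change 1.24, SE 0.21, adjusted p = 0.0248 for the fraction and log2 change 1.26, SE 0.21, adjusted p = 0.0128 for magnolin). With magnolin ALDOA (log2 change 0.79, SE 0.17, adjusted p = 0.0436) and ENO2 (log2 change 0.83, SE 0.19, adjusted p = 0.0483) also rose. NDRG1 came next with magnolin (log2 change 0.99, SE 0.22, adjusted p = 0.0507) and did not pass. These set A values include the replicate 1 libraries that stood apart, and without them 1 library per group is left in the set.

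A joint fit over both sets, with the replicate number as a block, called ANGPTL4 with the fraction (log2 change 1.74, SE 0.23, adjusted p = 0.0364) and no other member, where 0.156% of 15428 genes were called. In that fit 20 of the 37 members had an unadjusted p under 0.05, as did 2737 of all 15428 genes. SLC2A1 (log2 change 0.58, SE 0.10, adjusted p = 0.0618), VEGFA (log2 change 0.99, SE 0.18, adjusted p = 0.0637), PFKFB4 (log2 change 0.77, SE 0.14, adjusted p = 0.0637) and NDRG1 (log2 change 1.63, SE 0.34, adjusted p = 0.0838) were near the threshold without passing. Leaving out replicate 1 called 3 members, ANGPTL4 (log2 change 1.96, SE 0.24, adjusted p = 0.0331), NDRG1 (log2 change 2.10, SE 0.28, adjusted p = 0.0402) and HK2 (log2 change 0.79, SE 0.12, adjusted p = 0.0469). Over all genes that fit called 103 of 14925. Leaving out replicate 2, 3 or 4 called no member. For magnolin the joint fit called no member and no gene (0% called). At an unadjusted p under 0.05 it gave 17 members and 1419 genes, and without replicate 1 the smallest adjusted p of a member was 0.297 (ENO2). The joint comparison of the fraction with magnolin also called no gene (0%), with 1135 at an unadjusted p under 0.05.

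Whether the sets differed in the response was tested as an interaction. No member was called for the fraction, where 0.227% of 15428 genes were, and 15 members had an unadjusted p under 0.05, as did 1806 genes. NDRG1 had the largest difference between sets (set B minus set A 1.85, SE 0.29, adjusted p = 0.0616), followed by BNIP3 (1.30, adjusted p = 0.0894) and MXI1 (1.15, adjusted p = 0.074). For magnolin no gene was called (0%), and 3 members had an unadjusted p under 0.05, as did 1828 genes. Without replicate 1, an alternative chosen after seeing the data, neither treatment had a gene called. At an unadjusted p under 0.05 there were then 13 members and 1801 of 14925 genes for the fraction, and 10 members and 2942 genes for magnolin. NDRG1 differed between the sets by 1.37 with the fraction in that fit (adjusted p = 0.0698).

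Each treated library was also set against the control library of the same number. In set B same-numbered libraries did not deviate together (correlation -0.0265 to 0.0239), so the matching by number there is arbitrary. With the fraction 20 of the 37 members were higher in all 4 pairs, among them 10 HIF response genes, 3 uptake and flux genes and 7 core enzymes, where 13.2% of all genes were higher in 4 of 4. PGAM1 was lower in all 4, where 13.2% of genes were lower. With magnolin 20 members were higher in all 4 pairs (11, 4 and 5 by group), where 10.8% of genes were, and no member was lower in all 4, where 8.72% of genes were. The members higher in all 8 pairs were 14: VEGFA, NDRG1, ANGPTL4, ADM, P4HA1, P4HA2, ANKRD37, BHLHE40, SLC2A1, PFKFB3, PFKFB4, PFKP, ALDOA and ENO2. The share of all genes higher in all 8 pairs was not counted, so the 14 members have no such share beside them. Both treatments share the same control libraries, so the counts for the 2 treatments are not independent of each other. BNIP3, BNIP3L, EGLN1, KDM3A, MXI1, SLC2A3 and PDK1 were higher with the fraction in pairs 2, 3 and 4 and not in pair 1. Over pairs 2 to 4 alone, a count also added after seeing the data, 27 members were higher and 3 lower in every pair with the fraction, where 21.8% of all genes were higher and 22.8% lower. With magnolin 23 members were higher and 1 lower in those pairs, where 18.2% of all genes were higher and 15.2% lower.

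**Figure D5:**
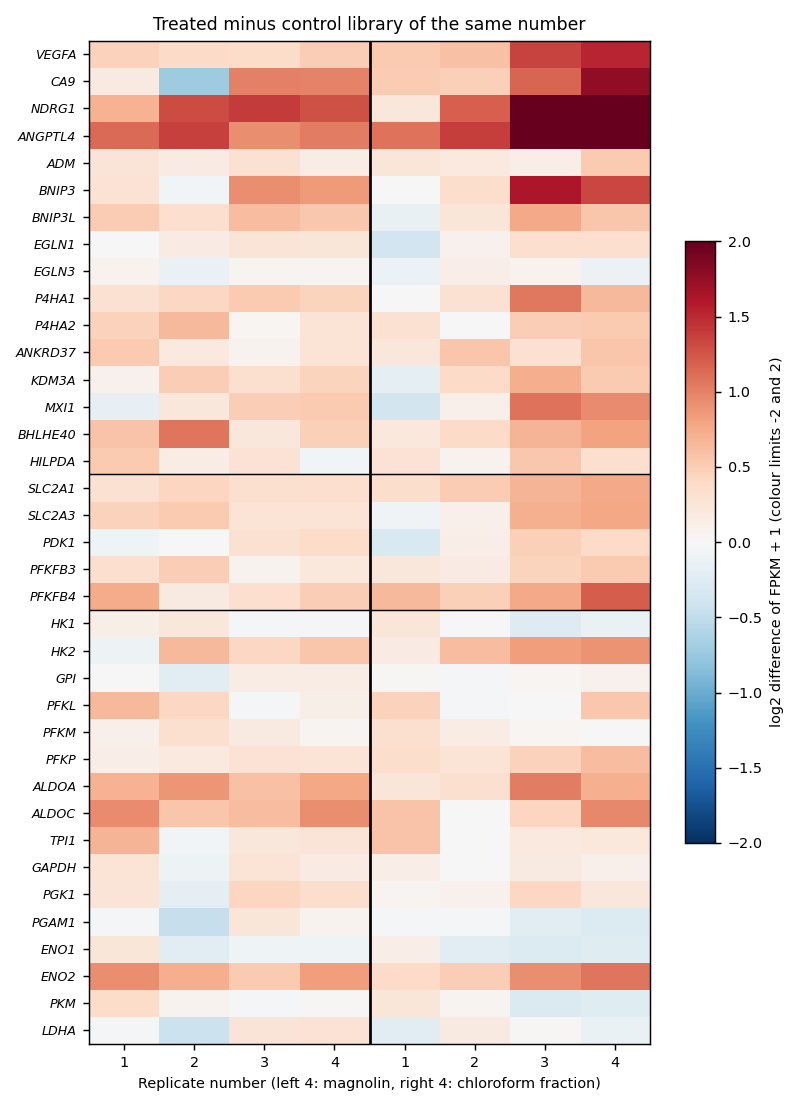
Log2 difference of FPKM + 1 between each treated library and the control library of the same replicate number (x axis, magnolin left, chloroform fraction right) for the 37 members (y axis, by role), in colour with limits of -2 and 2. With the fraction, 20 members are higher in all 4 pairs and the largest differences lie in pairs 3 and 4.

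Of 16 genes for HIF subunits, hydroxylases, degradation and cofactors, 14 were tested in set B, and with the fraction 1 rose and 2 fell. Those counts are near the shares over all genes, of which 8.33% rose and 11.6% fell. HIF1A, for the main oxygen-regulated subunit, was at 139 and 137 FPKM in the controls, 117 and 120.0 with magnolin and 99.9 and 84.8 with the fraction and fell (log2 change -0.57, SE 0.09, adjusted p = 0.00986). ARNT2, for an alternative beta subunit, was at 2.74 and 2.51 FPKM in the controls, 1.92 and 2.09 with magnolin and 0.912 and 0.680 with the fraction and also fell (log2 change -1.02, SE 0.14, adjusted p = 0.00673). VHL, for the recognition part of the ligase that degrades HIF, was at 18.2 and 17.8 FPKM in the controls, 20.01 and 20.5 with magnolin and 24.7 and 24.3 with the fraction and rose (log2 change 0.42, SE 0.07, adjusted p = 0.00984). EPAS1, for the HIF2 alpha subunit, was at 35.8 and 33.4 FPKM in the controls, 35.8 and 33.2 with magnolin and 38.7 and 39.8 with the fraction and did not pass the test. In set A HIF1A was at 177 and 136, 107 and 107, and 119.6 and 152 FPKM. With magnolin none of the 14 passed in set B.

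Of 30 other known HIF targets 25 were tested in set B, and 14 rose and none fell with the fraction, with a median log2 change of 0.42. Over all genes 8.33% rose and 11.6% fell. The largest changes were in DDIT4, an inhibitor of mTOR signalling, at 16.5 and 14.1 FPKM in the controls, 30.3 and 25.1 with magnolin and 55.7 and 67.1 with the fraction (log2 change 1.93, SE 0.14, adjusted p = 0.000981), and in STC2, a secreted stanniocalcin, at 38.1 and 38.9 FPKM in the controls, 75.8 and 87.4 with magnolin and 141 and 158 with the fraction (log2 change 1.93, SE 0.10, adjusted p = 0.000404). IGFBP3, which binds insulin-like growth factors, came next (log2 change 1.34, SE 0.09, adjusted p = 0.000833). With magnolin STC2 alone was called (log2 change 1.06, SE 0.10, adjusted p = 0.0195), the other 24 tested targets not passing, where 0.252% of all genes rose. In set A DDIT4 was at 4.14 and 4.74, 10.4 and 15.8, and 8.60 and 8.82 FPKM, and with the replicate block it rose with magnolin (log2 change 1.35, SE 0.19, adjusted p = 0.00556). DDIT4 and STC2 are also known as targets of the amino acid stress response.

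Of 26 listed genes that handle lactate and pyruvate or lead glucose into side pathways, 24 were tested in set B. With the fraction 3 rose and 4 fell (median -0.06), near the shares over all genes of 8.33% and 11.6%. The lactate exporter gene SLC16A3 (log2 change 0.64, SE 0.15, adjusted p = 0.0309) and its chaperone gene BSG (log2 change 0.53, SE 0.09, adjusted p = 0.0105) rose. PDK3 (log2 change -0.64, SE 0.09, adjusted p = 0.00694) and PDK2 (log2 change -0.46, SE 0.11, adjusted p = 0.0371), for kinases that act on pyruvate dehydrogenase as PDK1 does, fell. With magnolin none of the 24 passed.

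HCC827 gives the level of the members in parental cells of another EGFR-mutant line. It has its own table, so its values stand beside those of NCI-H1975 with no test. The HIF response sum in HCC827 was 236 and 243 FPKM and the enzyme sum 3196 and 3460. The GLUT3 gene SLC2A3 was at 0.581 and 0.778 FPKM there, against 7.72 to 18.7 in all NCI-H1975 libraries, while SLC2A1 was at 73.6 and 61.3. At that level SLC2A3 pseudogenes held up to 29.8% of the summed FPKM of the gene and its copies. CA9 was at 0.145 and 0.104 FPKM, under every NCI-H1975 library. TPI1, for triosephosphate isomerase, was at 472 and 447 and PFKFB3 at 34.0 and 30.2, both above every NCI-H1975 library, whose ranges were 142 to 323 and 8.41 to 16.8. VEGFA was at 28.0 and 27.4 FPKM, between the magnolin and the fraction libraries of set B. LDHA, at 274 and 251, and ANGPTL4, at 15.5 and 14.7, were below every NCI-H1975 library, whose lowest values were 386 and 29.5. In order of FPKM, so per gene length, GAPDH (1159 and 1084) led in HCC827. ENO1 (654 and 592), TPI1 and PGK1 (301 and 278) followed. Each step in that order was larger than the gap between the 2 libraries of either gene. PKM (264 and 245) and LDHA came next in HCC827, and their libraries overlapped. The order by rebuilt reads differed. There TPI1 (20990 and 20897) was below PKM (37237 and 36325), LDHA (28076 and 27036) and PGK1 (27347 and 26574).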

How the data were processed

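RNA-seq libraries of NCI-H1975 (control, magnolin and chloroform fraction, 4 each) and parental HCC827 (2) were used, 14 in all. The authors deposited FPKM per gene in 3 tables against hg38, per the submitters' processing notes, with gene length, coordinates and type per the file headers. All 58735 gene models match GENCODE 29. Which aligner, counter and strand setting were used is not stated in these sources. The tables also hold 2 library columns that match no label used here, and these were not analysed. Samples were grouped by their titles.

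FPKM multiplied by gene length gave whole reads (within 0.05, for values up to 2000 reads) for 100% of values in each library, so depth was taken from these sums. Differences were tested with limma 3.58.1 in R 4.3.3 on log2(FPKM + 1), with a mean trend and Benjamini-Hochberg adjustment over all genes with 1 FPKM or more in at least 2 libraries of the fit, at a threshold of 0.05. All 3 groups of a set shared 1 estimate of the spread. Fits within a set had no block. Fits over both sets had the replicate number as a block, since the number also holds the table. Over both sets every pair of libraries with the same number had a positive correlation of deviations (12 pairs, 0.29 to 0.84). These deviations are from group means over both tables, so the difference between tables enters them. They therefore cannot show pairing by number. In set A these were 0.704 to 0.743 and in set B -0.0265 to 0.0239, so the numbers were read as pairs in set A only, and the blocked value is given there. The fit was tested on simulated data.

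Members and gene lists were chosen with earlier results of these data known. Values in every NCI-H1975 library are given for the members called in a comparison with control, at most 20 by the size of the set B change with the fraction, and for VEGFA, CA9, NDRG1, SLC2A1, HK2, PFKFB4, LDHA, GAPDH, PGK1, ENO1 and PKM in any case. For the other lists at most 4 called genes were named, 1 gene that the rule would name is not reported here, and EPAS1 and the genes that overlap a member were added after their values were seen. Alternatives were a pseudocount of 0.1, no filter on low values, median-ratio rescaling, the block left in or out, the groups compared alone, protein-coding genes alone, and each library left out.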

Additional observations from a re-analysis of the deposited data

Results flagged for a closer look

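In groups of 4 libraries, a library was singled out where its gap to the nearest of the others, as a share of the group's range on the log2 scale, exceeded Dixon's critical value. This held in 14 of 111 groups of NCI-H1975 (12.6%), where chance alone gives about 1 in 20. The library was replicate 1 in 9 of them, replicate 2 in 4 and replicate 4 in 1. The libraries of the 2 sets were normalized separately, which bears on every value here, and its part was not tested.

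Replicate 1 with magnolin stood apart for MXI1 (4.09 FPKM), SLC2A1 (75.9), PFKFB3 (16.8), PFKM (15.7), ALDOC (35.2) and ENO2 (22.1), being low for MXI1 and high for the other 5. Replicate 1 of the controls was low for EGLN3 (4.68 FPKM) and high for PFKP (62.8). Replicate 1 with the chloroform fraction was high for PFKM (18.4 FPKM). Replicate 2 with the fraction was low for BHLHE40 (18.9 FPKM), PFKFB3 (9.49) and HK2 (23.3), and replicate 2 with magnolin was low for GPI (33.8). EGLN1 with the fraction was highest in replicate 4 (19.7 FPKM, the others being 18.3 to 18.5).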

How the results depend on the processing

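Of the 26 members called with the fraction against control in set B, 13 were called in all 12 alternatives (8 HIF response genes, 3 uptake and flux genes and the enzymes HK2 and ENO2), and none of the 26 reversed its direction in those 12. Leaving out a library gave 13 to 26 calls there. The number of members called over both sets with the fraction, 1 as reported, was 2 with a pseudocount of 0.1, 0 with no filter, 0 with no replicate block, 0 with the 2 groups alone, 7 over protein-coding genes, and 0 to 3 with a replicate left out. The 2 called with magnolin in set B became 0 with no filter, 4 with the 2 groups alone, 13 over protein-coding genes, and 0 to 4 with a library left out. The 14 called between fraction and magnolin in set B became 4 with no filter, 8 with the replicate block, 6 with the 2 groups alone, and 2 to 16 with a library left out. In set A, where none was called, the replicate block gave 1 with the fraction and 3 with magnolin. The difference between sets in the response to the fraction, with no member called, gave 5 over protein-coding genes. Calls over all genes moved too. Over protein-coding genes they were 186 of 11519 for the fraction over both sets and 395 of 11196 for magnolin in set B. For the difference between sets with the fraction they were 307 of 11519. With the 2 groups alone, magnolin in set B gave 165 of 13674 genes. Fraction against magnolin in set B gave 752 of 33660 with no filter and 1311 of 14673 with the block. Testing fewer genes changes the adjustment. The cause of the other shifts was not tested. With a library left out, its group keeps 1 library in a set, which is assumed to vary like the other groups.

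In set B, where same-numbered libraries did not deviate together, the replicate block left 21 members called with the fraction against control, without HILPDA, PDK1, PGK1, ENO1 and PKM. Over all genes it called 2156 of 14673 (14.7%) there. With magnolin the block called NDRG1 and ANGPTL4 (adjusted p = 0.0377 for both) but not BNIP3 (adjusted p = 0.0605), where 0.293% of all genes were called. Over both sets 9 of the 12 pairs correlated best with their own number, and the others with the other number of set B. The difference between the tables enters these correlations, so they cannot show pairing within set B. Depth limits precision most for the members with the lowest levels, CA9 and ANKRD37.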

Other observations

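PFKFB4 took a larger share of the FPKM of PFKFB3 and PFKFB4 with either treatment in set B, at 23.5% to 27.0% in controls, 28.7% to 31.8% with magnolin and 33.1% to 36.1% with the chloroform fraction. In set A it was 27.8% and 25.3% in controls, 35.1% and 21.4% with magnolin and 35.4% and 31.6% with the fraction, so magnolin replicate 2 was below both controls there. In HCC827 that share was 13.4% to 17.3%. The 16 core glycolytic enzymes together held 0.935% to 0.947% of all FPKM in set B controls, 1.01% in both magnolin libraries and 0.912% to 0.915% with the fraction, and 1.15% to 1.23% in HCC827. In set A they held 0.983% to 1.02% in controls, 0.951% to 1.18% with magnolin and 1.07% to 1.11% with the fraction, which was there above the controls. No test was run on these shares.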
